A study of Homo sapiens with 4 samples.

Results

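Collagens are the fibre and network proteins of the extracellular matrix, and their chain genes are named COL, a type number, A and a chain number. The collagen chain genes were taken from the deposited expression table as every locus with a gene name of that form, which gave 44 loci of the 56753 in the table. Of these, 41 name a single gene, and 3 carry a second name (COL7A1 with MIR711, COL17A1 with MIR936 and COL3A1 with AC066694.1), so that their value may include reads of the second gene. The members were chosen by name and not by any measured value, but the group was picked with earlier results of these data known.

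The cells were 786-O, an established human line of clear cell renal cell carcinoma that lacks functional VHL. They were stably transduced with PRDM16 lentivirus (2 libraries) or with a control vector (2 libraries), and total RNA was sequenced to see what PRDM16, a zinc finger regulator of transcription known from brown fat, does to the transcriptome. No source used here names the promoter that drives PRDM16, or says whether the transduced cells were a pool or a clone. Nothing in the labels tells whether the replicates were grown as separate cultures; a p-value here therefore covers only how far these libraries vary, and that may be technical.

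Collagen chains wind around each other into a helix rich in glycine and proline inside the endoplasmic reticulum. Some types then build striated fibrils, others build the open networks of basement membranes, and others coat fibrils or span the cell membrane. Type IV collagen is the main network of basement membranes, including those of kidney tubules and glomeruli. COL4A1 and COL4A2 encode the chains found in nearly all basement membranes, while COL4A3, COL4A4 and COL4A5 encode the chains of the mature glomerular filter.

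Values are FPKM (fragments counted relative to a transcript's length and to the size of the library), so levels can be compared between genes per length. PRDM16 itself was at 1226 and 1146 FPKM in the PRDM16 libraries, against 0.0157 and 0.234 FPKM in the control vector libraries. The lowest values of the table placed the depth of the libraries at 1.25 and 1.17 times (PRDM16 replicates 1 and 2) and 1.39 times (control vector replicate 2) that of control vector replicate 1. How many reads each library held is unknown. The renal carcinoma markers that could be matched (5 of 7 listed) were all present, with VIM at 3408 and 3329.8 FPKM in PRDM16 and 3455 and 3437 FPKM in the control vector, and PAX8 at 190.3 and 169 FPKM in PRDM16 and 202 and 208 FPKM in the control vector. EPAS1, which encodes HIF2A, was at 74.0 and 63.6 FPKM in PRDM16 and 79.6 and 141 FPKM in the control vector, where replicate 2 stood apart. Fibroblast markers summed to 3.08 and 3.25 FPKM in PRDM16 and 3.18 and 3.66 FPKM in the control vector over 6 matched genes, of which LUM alone had a mean of 1 or more and DCN was listed at 0. Endothelial (6 matched), leukocyte (5) and smooth muscle (3) markers had no gene at a mean of 1, and EMCN, CD3E and MYH11 among them were listed at 0 in all 4 libraries.

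Of the 44 chains, 16 were expressed at a mean of 1 FPKM or more over the 4 libraries and 28 were below. The expressed set was led by COL6A3, COL6A2, COL7A1 and COL18A1, the 4 chains with a mean of 100 or more, followed by 5 between 10 and 100 (COL4A2, COL6A1, COL4A1, COL8A1 and COL27A1) and 7 between 1 and 10. With PRDM16, 14 of the 16 had a lower and 2 a higher average on the log2 scale. Both PRDM16 libraries lay below both control vector libraries for 9 of the 16 (56.2%), where 20.3% of all 13246 tested loci did so, and above them for none, where 21.1% of all tested loci did so. No collagen chain passed the test, limma on log2(FPKM + 1) with Benjamini-Hochberg adjustment over all 13246 loci, which called 0.0226% of loci. The adjusted p of the 16 chains ran from 0.689 to 0.898. Only COL4A2 and COL4A1 had an unadjusted p under 0.05, which 6.12% of all tested loci had.

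**Figure D1:**
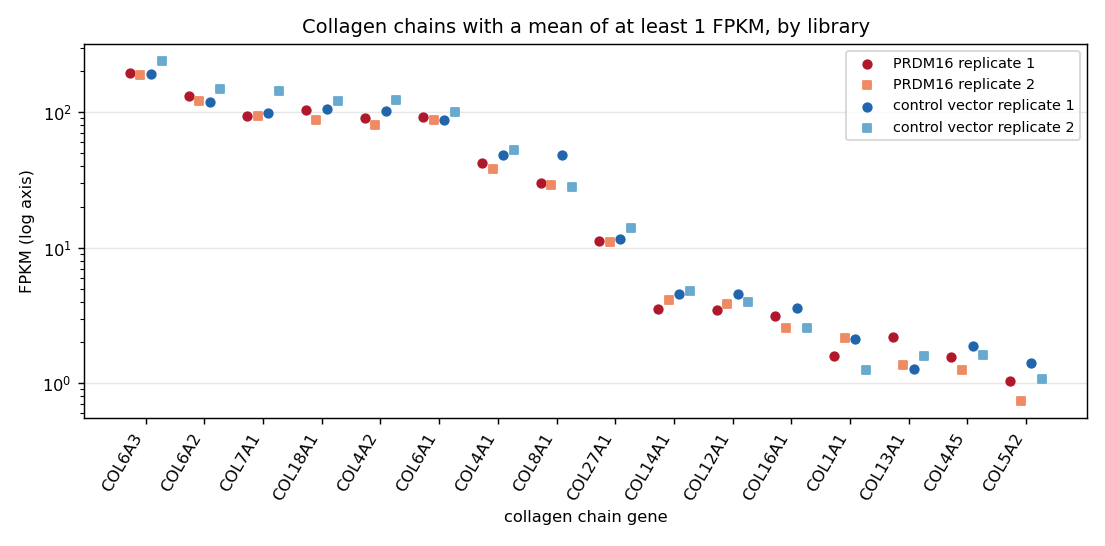
FPKM (log axis) of the 16 collagen chains with a mean of at least 1 FPKM, in order of their mean; each point is 1 library. COL6A3 is highest in every library and lies above 189 FPKM, while the 4 chains at the right lie between 0.742 and 2.19 FPKM.

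The median log2 change of the 16 chains was -0.18, against 0.0040 for all tested loci, with single chains between -0.39 and 0.18. The 95% intervals of the change, which are not adjusted for the number of loci, lay below 0 for COL4A2 and COL4A1 and included 0 for the other 14. Replicates of these chains differed by a median of 0.15 on the log2 scale in PRDM16 and 0.23 in the control vector. Over all tested loci these median gaps were 0.098 in PRDM16 and 0.19 in the control vector. The change was larger than the gap between the control vector replicates for 7 of the 16 chains, and larger than the gaps in both groups for 6. The share of all tested loci for which this held was not computed, so these counts have no background beside them. In bulk RNA, fewer cells that express a gene and less RNA per cell cannot be told apart.

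**Figure D2:**
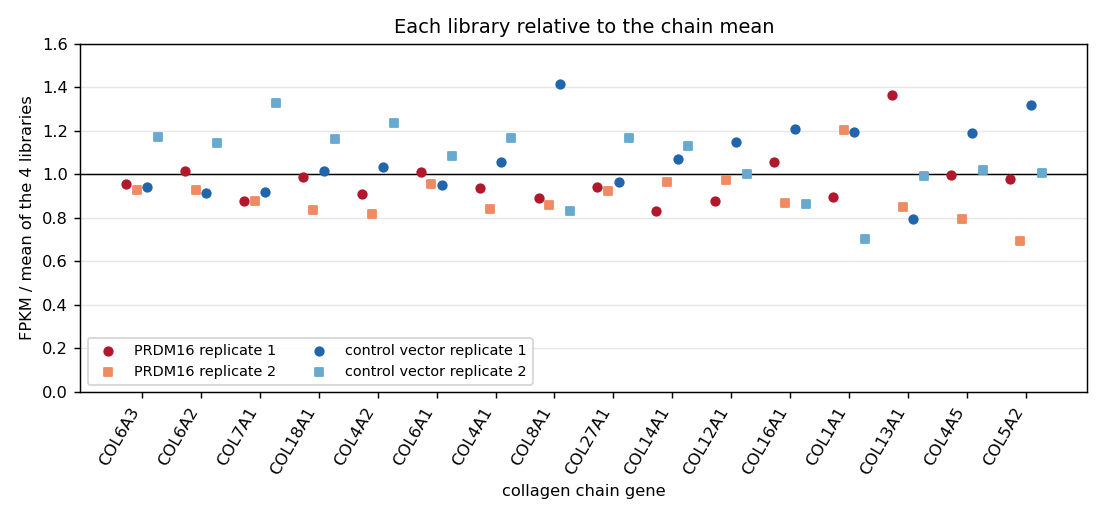
FPKM of each library divided by the mean of the 4 libraries, for the 16 expressed chains; the line at 1 is that mean. Control vector replicate 2 is the highest library for 9 of the 16 chains, and its points for COL7A1, COL4A2 and COL6A3 stand above those of the other 3 libraries.

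Control vector replicate 2 was the highest library for 9 of the 16 chains (33.9% of all tested loci), and PRDM16 replicate 2 the lowest for 7 (28.3% of all tested loci). Without control vector replicate 2, 11 of the 16 chains lay below the remaining control vector library in both PRDM16 libraries (36.2% of all tested loci) and 3 lay above (34.0% of all tested loci). Without control vector replicate 1 the same counts were 12 (40.7% of all tested loci) and 3 (43.9% of all tested loci). The median change of the chains was -0.18 with control vector replicate 2 left out and -0.19 with replicate 1 left out.

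**Figure D3:**
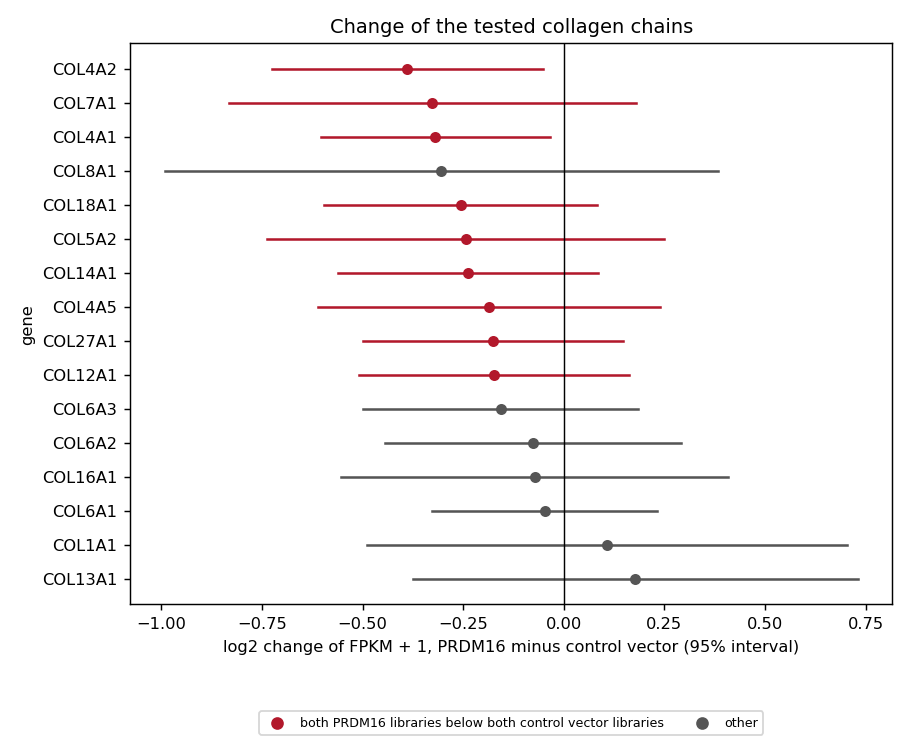
Change of each expressed chain on the log2(FPKM + 1) scale, PRDM16 minus control vector, with its unadjusted 95% interval from limma (n = 2 each); red marks chains whose PRDM16 libraries both lie below both control vector libraries. COL4A2, at -0.39, and COL4A1, at -0.32, are the chains whose interval does not reach 0, and COL1A1 and COL13A1 lie right of 0.

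Among the basement membrane chains, COL4A2 and COL4A1 were lower in both PRDM16 libraries and had the smallest p of all collagen chains, without passing over all loci. COL4A2 (chromosome 13, 110305812 to 110513209, plus strand, GENCODE release 29 on GRCh38) was at 90.3 and 80.9 FPKM in PRDM16, against 102.5 and 123 FPKM in the control vector. The libraries of the groups did not overlap, and the averages were 85.6 ± 6.63 FPKM in PRDM16 and 113 ± 14.3 FPKM in the control vector (SD, n = 2 each). The log2 change was -0.39 (95% interval -0.73 to -0.051, limma adjusted p = 0.689).

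COL4A1, its partner in the trimer (chromosome 13, 110148963 to 110307233, minus strand), was at 42.5 and 38.1 FPKM in PRDM16, against 48.0 and 53.1 FPKM in the control vector. Again the groups did not overlap, and the log2 change was -0.32 (95% interval -0.60 to -0.033, limma adjusted p = 0.689). With each library left out in turn the change stayed below 0 for both genes, as it had to where the groups do not overlap. It lay between -0.52 and -0.26 for COL4A2 and between -0.40 and -0.24 for COL4A1, where the change nearest to 0 came without control vector replicate 2 for COL4A2 and without PRDM16 replicate 2 for COL4A1.

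COL4A1 and COL4A2 lie head to head and are read in opposite directions. In the GENCODE coordinates above they overlap, since COL4A2 begins at 110305812 and COL4A1 reaches 110307233. The stretch between their RefSeq starts is shown because both genes were lower together. Whether it had a part in this was not tested. In RefSeq on GRCh38.p14 the starts are 127 bases apart, and the stretch between them (chr13:110307158-110307283, plus strand, 126 bases, 80.2% G or C) is printed with the COL4A1 start to its left and the COL4A2 start to its right. Capitals mark a match to the CCAAT box and a match to the GC box, whose letters are GGGCGG. For comparison, COL4A5 and COL4A6 on the X chromosome also lie head to head, with starts 380 bases apart, and the 250 bases before the COL4A5 start are printed (chrX:108439588-108439837, plus strand, 51.2% G or C), where capitals mark a pair of CCAAT boxes, one on each strand.
COL4A1-COL4A2 stretch: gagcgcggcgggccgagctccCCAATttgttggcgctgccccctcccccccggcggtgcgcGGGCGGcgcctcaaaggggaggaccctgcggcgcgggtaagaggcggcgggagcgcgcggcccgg
COL4A5 upstream: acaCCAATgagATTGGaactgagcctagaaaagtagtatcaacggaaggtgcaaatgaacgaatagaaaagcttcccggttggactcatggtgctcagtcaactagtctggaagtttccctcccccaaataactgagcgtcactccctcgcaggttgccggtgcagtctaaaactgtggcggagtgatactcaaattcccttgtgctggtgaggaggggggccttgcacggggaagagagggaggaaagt

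Of the 16 expressed chains, 11 matched a RefSeq promoter window of 250 bases before to 50 after the start. CCAAT was present on either strand in the windows of 3 of them, COL4A1, COL4A2 and COL4A5, and in 34.6% of the 35116 windows of all genes. The windows of COL4A1 and COL4A2 overlap, so they hold the same match. The GC box (GGGCGG) was present in those of 8 chains and in 45.0% of all windows, and TATAAA in those of 4 chains (COL6A2, COL7A1, COL13A1 and COL18A1) and in 11.5% of all windows. ACGTG is a form of the core of the motif that HIF binds, and other forms were not searched for. Among these chains ACGTG was present only for COL12A1, and it was present in 21.4% of all windows. A chain was counted if any of its windows held the letters, while the share over all genes counts single windows. The counts and the shares are therefore not directly comparable. A match is a description of the letters and does not show binding.

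The ratio of COL4A1 to COL4A2 FPKM was nearly the same in 3 of the libraries, at 0.471 and 0.471 in PRDM16 and 0.468 in control vector replicate 1, and was 0.432 in control vector replicate 2. The averages were 0.471 ± 0.000347 in PRDM16 and 0.450 ± 0.0253 in the control vector (SD, n = 2 each, two-sided exact permutation p = 0.33, the smallest that 2 against 2 libraries allow).

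COL4A5, whose loss causes Alport syndrome of the kidney, was the other expressed type IV chain, at 1.57 and 1.25 FPKM in PRDM16, against 1.88 and 1.61 FPKM in the control vector. The libraries did not overlap, but the nearest PRDM16 and control vector values were close, and the log2 change was -0.19 (95% interval -0.61 to 0.24, limma adjusted p = 0.710). Its neighbour COL4A6 was at most 0.0326 FPKM in any library, below COL4A5 in all 4. COL4A4 was at 0.212 and 0.178 FPKM in PRDM16 and 0.0258 and 0.0371 FPKM in the control vector, and COL4A3 at 0.0711 and 0.0254 FPKM in PRDM16 and 0.00737 and 0.0159 FPKM in the control vector. Both were higher in both PRDM16 libraries, at levels too low to be tested.

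Type VI collagen, which forms beaded microfilaments around cells, held the largest part of collagen FPKM, and the groups overlapped for all 3 of its main chains. COL6A3, its longest chain (chromosome 2, 237324003 to 237414375), was at 195 and 189 FPKM in PRDM16, against 192 and 239 FPKM in the control vector. The PRDM16 libraries and control vector replicate 1 lay together, and control vector replicate 2 lay above them. The log2 change was -0.16 (95% interval -0.50 to 0.18, limma adjusted p = 0.703), and it was -0.00094 without control vector replicate 2.

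COL6A2 (chromosome 21, 46098097 to 46132849) was at 132 and 120.4 FPKM in PRDM16, against 119 and 149 FPKM in the control vector. COL6A1, next to it on the chromosome (45981737 to 46005050), was at 92.7 and 87.6 FPKM in PRDM16, against 87.1 and 99.7 FPKM in the control vector. The PRDM16 values of both chains lay between the control vector values, with log2 changes of -0.077 (95% interval -0.45 to 0.29) and -0.048 (95% interval -0.33 to 0.23) that were above 0 without control vector replicate 2, at 0.086 and 0.048.

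The ratio of COL6A1 to COL6A2 was 0.704 and 0.727 in PRDM16 and 0.735 and 0.670 in the control vector, and the groups overlapped (two-sided exact permutation p = 1.0). The ratio of COL6A3 to COL6A1 was 2.105 and 2.163 in PRDM16, below 2.21 and 2.40 in the control vector, at the smallest exact permutation p of 0.33. COL6A5 and COL6A6, the alternative type VI chains, were at most 0.0738 FPKM in any library.

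COL7A1, whose product anchors epithelial basement membranes to the tissue beneath, was measured in a locus (chromosome 3, 48564073 to 48595267) that also names MIR711. It was at 94.3 and 94.6 FPKM in PRDM16, against 98.7 and 143 FPKM in the control vector. The PRDM16 libraries were nearly equal and lay just below control vector replicate 1, while control vector replicate 2 stood apart. The log2 change was -0.33 (95% interval -0.83 to 0.18, limma adjusted p = 0.689), -0.063 with control vector replicate 2 left out and -0.59 with replicate 1 left out.

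COL18A1, the basement membrane multiplexin whose end fragment is endostatin, an inhibitor of vessel growth, was at 103 and 87.4 FPKM in PRDM16, against 106 and 121 FPKM in the control vector. The highest PRDM16 library lay just below the lowest control vector library, and the log2 change was -0.26 (95% interval -0.60 to 0.083, limma adjusted p = 0.689). The gene (chromosome 21, 45405137 to 45513720, plus strand) shares 1401 of its 8525 annotated exon bases with SLC19A1 on the other strand. SLC19A1 was at 33.7 and 32.4 FPKM in PRDM16 and 28.0 and 23.9 FPKM in the control vector, and no source used here says whether the counting kept strand. COL15A1, the other multiplexin, was at most 0.0846 FPKM.

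COL8A1, a short chain that builds hexagonal networks in vessel walls and under the corneal endothelium, depended on 1 library. It was at 30.3 and 29.1 FPKM in PRDM16, against 48.1 and 28.3 FPKM in the control vector. Control vector replicate 1 was high and the other 3 libraries were alike. Its log2 change was -0.30 (95% interval -0.99 to 0.38, limma adjusted p = 0.708), 0.069 with control vector replicate 1 left out and -0.68 with replicate 2 left out. Its partner COL8A2 was at most 0.142 FPKM, and COL10A1, a network collagen of growth plate cartilage, at most 0.0365 FPKM.

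Fibril-forming chains were few and low. COL27A1, a fibrillar chain known from cartilage, was the highest of them, at 11.2 and 11.0 FPKM in PRDM16, against 11.5 and 13.97 FPKM in the control vector. The groups did not overlap by a narrow margin, and the log2 change was -0.18 (95% interval -0.50 to 0.15), or -0.048 without control vector replicate 2. COL1A1, the main chain of type I collagen of bone and skin, was at 1.59 and 2.14 FPKM in PRDM16 and 2.12 and 1.25 FPKM in the control vector, with overlap between the groups (log2 change 0.11, 95% interval -0.49 to 0.70).

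COL5A2, a chain that helps set fibril width, was at 1.04 and 0.742 FPKM in PRDM16, against 1.41 and 1.07 FPKM in the control vector, where the middle pair of libraries differed by little (log2 change -0.24, 95% interval -0.74 to 0.25). It was the chain closest above the limit of 1, with a mean of 1.07 FPKM. Its partner COL5A1 was the chain closest below, with a mean of 0.663 FPKM, and was at 1.04 and 0.664 FPKM in PRDM16 and 0.558 and 0.393 FPKM in the control vector. COL5A1 and COL5A2 thus lay on opposite sides, COL5A1 higher and COL5A2 lower in both PRDM16 libraries, without a test for COL5A1.

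COL1A2, the partner of COL1A1, was at 0.108 and 0.0892 FPKM in PRDM16, and at a listed 0 and 0.0127 FPKM in the control vector. The locus naming COL3A1 was at 0.0497 and 0.104 FPKM in PRDM16, and at a listed 0 and 0.0109 FPKM in the control vector. Both genes are strongly expressed by fibroblasts, whose markers are given above. COL11A1, COL24A1 and COL5A3 were at most 0.0495 FPKM, and COL2A1 and COL11A2 were listed at 0 in all 4 libraries.

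The collagens that sit on the surface of fibrils without forming them (FACIT) were expressed at low levels through 3 chains. COL14A1 was at 3.53 and 4.10 FPKM in PRDM16, against 4.55 and 4.79 FPKM in the control vector, without overlap (log2 change -0.24, 95% interval -0.56 to 0.084, limma adjusted p = 0.689). COL12A1 was at 3.48 and 3.86 FPKM in PRDM16, against 4.57 and 3.97 FPKM in the control vector, again without overlap but with a narrow gap (log2 change -0.17, 95% interval -0.51 to 0.16). COL16A1 was at 3.13 and 2.57 FPKM in PRDM16, against 3.58 and 2.55 FPKM in the control vector, which overlapped (log2 change -0.073, 95% interval -0.55 to 0.41). The remaining FACIT chains were below 1, from COL9A2, at 0.446 and 0.507 FPKM in PRDM16 and 0.646 and 0.805 FPKM in the control vector, through COL9A3, COL21A1, COL20A1 and COL22A1, to COL9A1 and COL19A1, which were listed at 0 in all 4 libraries.

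COL13A1, a collagen that spans the cell membrane and is known for its role at the nerve-muscle junction, had the highest log2 change of the 16 tested chains, at 2.19 and 1.36 FPKM in PRDM16, against 1.27 and 1.59 FPKM in the control vector. Only PRDM16 replicate 1 was high, so the groups overlapped (log2 change 0.18, 95% interval -0.38 to 0.73), and without that library the change was -0.038. The locus naming COL17A1, the hemidesmosome collagen, was at 0.431 and 0.584 FPKM in PRDM16 and 0.284 and 0.272 FPKM in the control vector. COL23A1 and COL25A1, also membrane collagens, were at most 0.0653 FPKM, and COL26A1 and COL28A1 at most 0.159 FPKM.

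Of the 28 chains below a mean of 1, 21 had a mean under 0.1 FPKM and 4 were listed at 0 throughout. In 8 of the 28 the PRDM16 libraries were both above, and in 4 both below, the pair of control vector libraries. Among the loci above 0 in at least 1 library, with no limit on level, 15.7% lay above and 17.7% below. These shares include the loci at a mean of 1 or more, of which 21.1% lay above and 20.3% below. The share among loci below 1 alone was not computed. At these levels a value may rest on single reads, and a listed 0 may be a failed estimate.

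Summed over all 44 loci, collagen chains gave 811 and 757 FPKM in PRDM16, against 835 and 989 FPKM in the control vector. This was 0.142% and 0.132% of all summed FPKM in PRDM16 and 0.145% and 0.178% in the control vector. The averages were 784 ± 37.7 FPKM in PRDM16 and 912 ± 109 FPKM in the control vector (SD, n = 2 each, two-sided exact permutation p = 0.33, the smallest possible). The log2 ratio of the averages was -0.22, and it was -0.090 with control vector replicate 2 left out and -0.33 with replicate 1 left out.

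**Figure D4:**
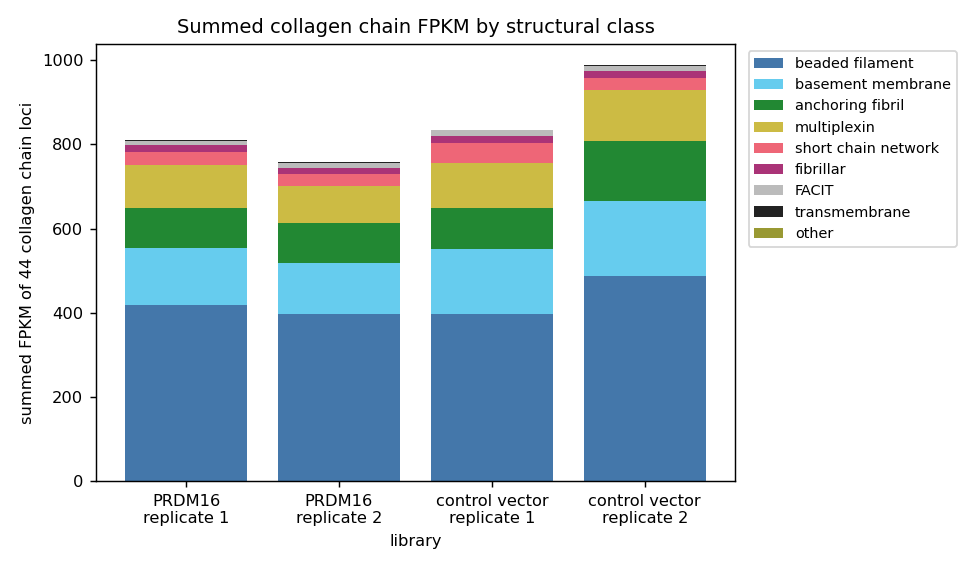
FPKM summed over the 44 collagen chain loci in each library, stacked by structural class. The beaded filament class (type VI) is the largest block in every library, at 397 to 487 FPKM, and control vector replicate 2 has the tallest bar, at 989 FPKM.

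Type VI chains made up 51.7% and 52.5% of collagen FPKM in PRDM16, above 47.7% and 49.3% in the control vector. Type IV chains made up 16.6% and 15.9% in PRDM16, below 18.3% and 17.96% in the control vector. Neither share overlapped between the groups, and the same held for some small classes. Membrane-spanning chains made up 0.325% and 0.260% in PRDM16, above 0.188% and 0.196% in the control vector. COL26A1 and COL28A1 together made up 0.0104% and 0.0102% in PRDM16, below 0.0214% and 0.0111% in the control vector. Type VII made up 11.6% and 12.5% of collagen FPKM in PRDM16 and 11.8% and 14.4% in the control vector, multiplexins 12.7% and 11.5% in PRDM16 and 12.7% and 12.3% in the control vector, and fibrillar chains 1.86% and 1.95% in PRDM16 and 1.88% and 1.70% in the control vector. The type IV sum was 135 and 120.5 FPKM in PRDM16, against 152 and 178 FPKM in the control vector, a log2 ratio of -0.37 (exact permutation p = 0.33). The log2 ratio was close to this for type VII, at -0.35, and for the short chain class of COL8A1, COL8A2 and COL10A1, at -0.36. Each of these ratios rested largely on 1 control vector library. Type VII was at 94.3 and 94.6 FPKM in PRDM16 and 98.7 and 143 FPKM in the control vector. The short chain class overlapped between the groups, at 30.4 and 29.3 FPKM in PRDM16 and 48.2 and 28.4 FPKM in the control vector. Membrane-spanning chains, at 0.39, were the only class with a higher sum in PRDM16. Their sum was 2.63 and 1.97 FPKM in PRDM16 and 1.57 and 1.93 FPKM in the control vector, so PRDM16 replicate 2 lay close to control vector replicate 2.

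Genes that fold, modify and process collagen had no member that passed the test. Of 29 listed genes, 26 were matched to a locus naming that gene alone and 22 were tested. By limma over all loci 0 were called, and 1 had an unadjusted p under 0.05, where 6.12% of all tested loci did. In both PRDM16 libraries 7 (31.8%) lay lower, against 20.3% of all tested loci, and 1 (PLOD1) lay higher, against 21.1%. Their median log2 change was -0.085. FKBP10, a prolyl isomerase of the endoplasmic reticulum that assists collagen folding, had the smallest p, at 102 and 96.2 FPKM in PRDM16, against 120.2 and 132 FPKM in the control vector. Its groups did not overlap (log2 change -0.35, 95% interval -0.60 to -0.094, limma adjusted p = 0.689).

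CRTAP, a subunit of the prolyl hydroxylase complex that acts on collagen, was at 209.5 and 196 FPKM in PRDM16, against 229.9 and 247 FPKM in the control vector (log2 change -0.23, 95% interval -0.47 to 0.0050). PLOD2, a lysyl hydroxylase that sets the kind of collagen crosslink and is known as a hypoxia target, was at 226 and 217 FPKM in PRDM16, against 255 and 244 FPKM in the control vector (log2 change -0.17). PCOLCE, which speeds the removal of the procollagen end piece, was at 6.67 and 6.72 FPKM in PRDM16, against 7.39 and 9.88 FPKM in the control vector (log2 change -0.31, or -0.13 without control vector replicate 2 and -0.50 without replicate 1). These 3 genes were lower in both PRDM16 libraries.

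P4HB and PPIB, the most abundant of the list, had overlapping groups. P4HB, a subunit of the main collagen prolyl hydroxylase, was at 725 and 664 FPKM in PRDM16 and 696 and 778 FPKM in the control vector. PPIB, which works with CRTAP and P3H1, was at 554 and 532 FPKM in PRDM16 and 483 and 581 FPKM in the control vector. The collagen chaperone SERPINH1 was at 117 and 113 FPKM in PRDM16, narrowly below 122.5 and 122 FPKM in the control vector.

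**Figure D5:**
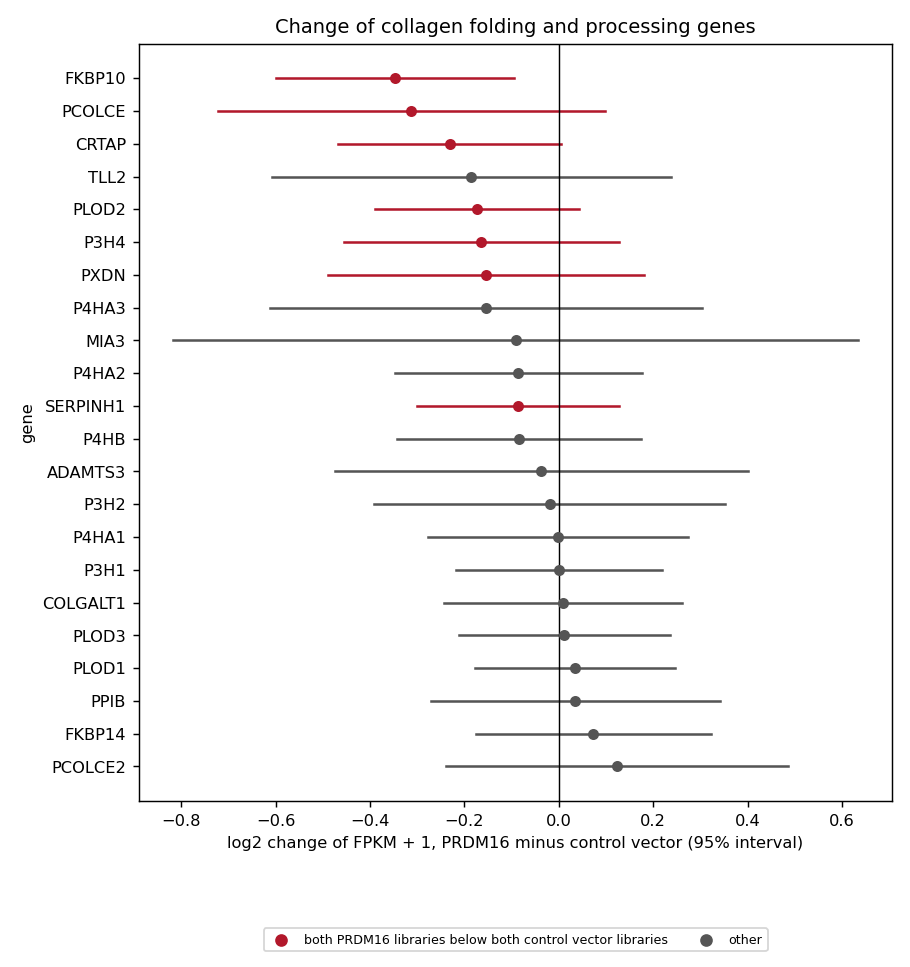
Change of the 22 tested genes of collagen folding, modification and processing on the log2(FPKM + 1) scale, PRDM16 minus control vector, with unadjusted 95% intervals from limma (n = 2 each); red marks genes whose PRDM16 libraries both lie below both control vector libraries. FKBP10, at -0.35, is the only gene whose interval does not reach 0, and PCOLCE2 has the highest change, at 0.12.

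Of 10 listed collagen receptors, 7 were matched and 3 were tested, and none was called. ITGB1, the common subunit of the collagen-binding integrins, was at 761 and 660.2 FPKM in PRDM16 and 734 and 798 FPKM in the control vector. ITGA2, which pairs with it, was at 3.90 and 3.33 FPKM in PRDM16 and 3.15 and 4.39 FPKM in the control vector. MRC2, which takes up collagen for breakdown, was at 52.7 and 52.1 FPKM in PRDM16, below 53.7 and 66.1 FPKM in the control vector (log2 change -0.18, 95% interval -0.52 to 0.16). Without control vector replicate 2 the change of MRC2 was -0.034, and without replicate 1 it was -0.33. DDR2, ITGA10 and ITGA11 were below a mean of 1, and LAIR1 was listed at 0 in all 4 libraries.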

How the data were processed

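The values are the deposited expression table of the authors, taken as FPKM, a unit the table's header does not name. The submitters' processing notes name the build hg38 and, as tools, Cuffdiff, Cufflinks 2.2.1, TopHat2 2.1.0 and Trim Galore. Annotation, filters, scaling and strandedness: not given in the sources used here. Deposited FPKM sum to between 556213 and 574003 per library and are not whole, so they are neither counts nor TPM.

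Loci with a mean of at least 1 FPKM were fitted in R 4.3.3 with limma 3.58.1 on log2(FPKM + 1), a scale that understates changes of low genes, with a variance trend, two-sided, adjusted by Benjamini-Hochberg over all 13246 loci at 0.05. The test was checked on simulated data. Single values per library had an exact permutation test. Python 3.11.15, numpy 2.4.6, pandas 2.3.3 and matplotlib 3.10.9 made tables and plots.

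The collagen loci and the lists of folding genes, receptors and markers were chosen with earlier results of these data known. Every chain at a mean of 1 or more was named; from the folding and receptor lists, the 3 most abundant and the 4 with the smallest p were, with SERPINH1, PLOD1, PCOLCE2 and the receptors below the filter added after their values were seen. Coordinates are from GENCODE release 29, which matched all 44 names, and promoter sequences from RefSeq on GRCh38.p14. The alternatives were a pseudocount of 0.1 or 0.5, keeping low loci, a minimum mean of 5, 3 scalings, variance models, the replicate number as a block and leaving out each library or the loci with several names.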

Additional observations from a re-analysis of the deposited data

How the results depend on the processing

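No collagen chain was called under any alternative run, and the smallest adjusted p any of them reached was 0.130 (COL7A1 and COL4A2, without control vector replicate 1). The number of loci called over the whole table, 3, became 5 at a pseudocount of 0.1, with robust variances and under the replicate block, 1 when low loci were kept and 6 when the trend was dropped, and 16 to 39 with a library left out, where the loci tested were held the same and the lone library of a group was assumed to vary like the other group. The deviations of libraries with the same replicate number correlated at -0.058 over all tested loci. With 2 libraries per group this cannot show whether a number marks a shared culture. Under the replicate block the chains with an unadjusted p under 0.05 numbered 0 in place of 2, and without the filter they numbered 6. The share of all loci under these settings was not computed, so these counts have no background beside them. The chains lower in both PRDM16 libraries numbered 9; they numbered 5 of the 9 tested at a mean of at least 5 (18.6% of all loci), 13 without the filter (17.7%), 6 after quantile normalization (19.5%) and 9 to 12 with a library left out (27.6% to 40.7%). The chains higher in both numbered 0, but 8 without the filter (15.7% of all loci) and 1 to 3 with a library left out (30.1% to 43.9%), where fewer libraries make separation easier. The median change, -0.18, was -0.018 without the filter, which adds the chains near 0. The summed FPKM kept its direction in every alternative run, but its groups did not overlap, so leaving out 1 library could not turn it.

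Of the 16 expressed chains, 10 kept their direction in every alternative, but not their size. All of these except COL6A3 had groups that did not overlap, so leaving out 1 library could not turn their direction. The variance models and the replicate block do not alter the estimated change at all. The share of all tested loci that kept their direction was not computed. Leaving out 1 library gave -0.37 to -0.14 for COL18A1, -0.32 to -0.15 for COL14A1, -0.26 to -0.091 for COL12A1, -0.28 to -0.091 for COL4A5, -0.36 to -0.13 for COL5A2 and -0.30 to -0.048 for COL27A1. Leaving out 1 library moved the change of COL6A2 between -0.24 and 0.086, of COL6A1 between -0.14 and 0.048, of COL8A1 between -0.68 and 0.069, of COL16A1 between -0.26 and 0.11, of COL1A1 between -0.13 and 0.34 and of COL13A1 between -0.038 and 0.39. The same held for PPIB (-0.098 to 0.17) and ITGA2 (-0.23 to 0.15). The cause was not tested.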
